A study of Mus musculus with 4 samples.

Results

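BATF, BATF3, IRF4 and the JUN and FOS proteins are transcription factors that T cells use to turn antigen receptor signals into gene expression, and their 9 genes were followed here in CD4 T cells of the mouse colon. The genes were fixed by name, namely Batf, Batf3, Irf4, Jun, Junb, Jund, Fos, Fosb and Fosl2. They are 9 of 18193 genes with a named probe set, and 13 of 45101 probe sets on the array measured them. A probe set is a group of short probes for 1 transcript, and where a gene had several, the one of highest mean over the 4 arrays is given first and called the shown probe set. Of the 9 genes, 8 were above the filter for dim genes, and Batf3, which was below it, was kept at its level.

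A pair of DNA-binding families meets in this group of proteins. JUN, JUNB, JUND, FOS, FOSB, FOSL2, BATF and BATF3 carry a basic leucine zipper, a helix that must pair with a second zipper before it can grip DNA, and the resulting pairs are known together as AP-1. JUN proteins can pair with each other, FOS proteins need a JUN partner, and BATF, which lacks a domain for activating transcription, also works through a JUN partner. IRF4, an interferon regulatory factor, binds weakly alone and joins BATF and JUN on composite sites. In T cells the BATF and IRF4 pair is known for Th17 differentiation and for the effector state of regulatory T cells.

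The tested population, labelled GPR15positive, was CD4 T cells sorted as GFP-positive from the lamina propria of the large intestine, and the population it was set against, labelled GPR15negative, was the GFP-negative CD4 T cells of that tissue. All mice were heterozygous knock-ins with GFP placed in the Gpr15 locus, on a mixed 129/B6 background, so both populations carry 1 GFP allele and 1 intact copy of Gpr15, a receptor that directs T cells to the colon. Both were freed with collagenase before sorting, and each was hybridised to 2 Affymetrix arrays, replicate 1 and replicate 2. The labels say nothing of age or of how many mice a sample pooled, so the replicate spread behind each p-value may be partly technical. The series' design text once writes the GFP-negative cells as CD4-negative, but Cd4 had signals of 540.02 and 533 in GPR15positive cells and 501 and 587 in GPR15negative cells, at overlapping levels.

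Gpr15 had signals of 619 and 729 on the GPR15positive arrays, against 146 and 162 on the GPR15negative arrays, and followed the sort. Array medians ran from 45.2 to 46.0 in GPR15positive and from 36.1 to 37.0 in GPR15negative cells. Signals of the X-linked Xist and the Y-linked Eif2s3y were those of females on both replicate 1 arrays and of males on both replicate 2 arrays, so differences of the 9 genes are also given within a replicate number. The 2 replicates of a group therefore came from mice of different sex. The fit had group as its only term, so the spread behind each p-value includes the difference between females and males. Of 10 tested CD4 T cell identity genes 8 had negative differences, beside 5184 of 12253 genes, with a median of -0.07. At an unadjusted p under 0.05 in limma 1 was lower and 0 higher, beside 4.37% and 10.2% of all genes. The lower gene was Lat, at 355 and 397 in GPR15positive and 641 and 786 in GPR15negative cells. The count of negative differences changed with the scaling of the arrays. Under quantile normalization 5 of the 10 were negative, beside 5947 of 12253 genes, with a median of -0.0053. With arrays scaled to equal medians 9 of the 10 were, beside 8183 of 12253 genes. The T cell receptor chain gene Cd3e had signals of 5208 and 4717 in GPR15positive and 5443 and 5615 in GPR15negative cells, without overlap and with a difference of -0.16. Markers of other cells were measured in both. All 14 tested myeloid and dendritic cell markers had positive differences, with summed signals of 1449 and 3145 against 732 and 1464. So did all 10 tested B and plasma cell markers, with sums of 7213 and 4867 against 4335 and 5135. Few genes weighed heavily in these sums. Among the brightest in the myeloid sum were Cd74, at 365 and 690 against 126 and 373, and H2-Aa, at 180 and 826 against 69.9 and 345. Jchain made up most of the B and plasma cell sum, at 6219 and 4093 against 3852 and 4455. Over all genes 7069 of 12253 differences were positive. With arrays scaled to equal medians, 13 of the 14 and 7 of the 10 stayed positive, beside 4070 of 12253 genes. Of 12 tested markers of epithelium, stroma and mast cells 9 had positive differences (sums of 2224 and 1568 against 847 and 1504). Of 4 tested markers of CD8 T, natural killer and innate lymphoid cells 2 had (308 and 279 against 356 and 443). At an unadjusted p under 0.05 in limma, 3 myeloid, 2 B and plasma cell and 3 epithelial, stromal or mast cell markers were higher, beside 10.2% of all genes. With replicate number as a second term in the fit these counts were 8, 2 and 3, beside 1500 of 12253 genes. Under quantile normalization, with group alone, they were 3, 0 and 2, beside 800 of 12253 genes. In the first of these fits 2 of the 4 markers of CD8 T, natural killer and innate lymphoid cells were lower at that p, beside 4.37%. No marker was at 0. The mean over the 4 arrays was below the filter for 2 B and plasma cell markers (Pax5 and Tnfrsf17) and 4 myeloid markers (Adgre1, Itgam, Spi1 and S100a9). It was also below for 2 markers of CD8 T, natural killer and innate lymphoid cells and 5 of epithelium, stroma and mast cells. Among the dim myeloid genes the groups stood apart for Itgam, at 32.3 and 43.4 in GPR15positive and 8.26 and 21.9 in GPR15negative cells. They overlapped for Adgre1, Spi1 and S100a9. The part of such cells in the values that follow was not tested.

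The stretches of 150 bases before the annotated starts of Jun, Fos and Batf are shown because, among the 9 genes, theirs held sites of the kind that leucine zipper proteins bind. They are from RefSeq, build GRCm38.p6, written 5′ to 3′ on the gene's strand, from chr4:95052223-95052372 (minus strand) for Jun, chr12:85473740-85473889 (plus strand) for Fos and chr12:85686570-85686719 (plus strand) for Batf. Capitals mark TGACATCA in Jun, TGACGT in Fos and Batf, and TATAAA, the TATA box, in Fos.
Jun: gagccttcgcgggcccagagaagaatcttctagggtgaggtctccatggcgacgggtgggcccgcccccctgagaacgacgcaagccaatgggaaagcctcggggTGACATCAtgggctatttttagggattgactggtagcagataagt
Fos: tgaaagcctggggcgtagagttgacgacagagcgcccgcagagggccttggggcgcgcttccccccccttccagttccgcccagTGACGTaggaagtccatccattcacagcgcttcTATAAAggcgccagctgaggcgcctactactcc
Batf: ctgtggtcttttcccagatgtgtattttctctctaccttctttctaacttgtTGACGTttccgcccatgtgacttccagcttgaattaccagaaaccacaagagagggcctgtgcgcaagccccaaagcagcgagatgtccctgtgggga
In Jun the marked site runs from base -45 to -38, in Fos TGACGT runs from -66 to -61 and TATAAA from -33 to -28, and in Batf TGACGT runs from -98 to -93, where -1 is the base before the start. RefSeq windows of 300 bases, 250 before and 50 after the start, were available for all 9 genes and were searched on both strands. TGACGT was in 2 of the 9, and in 7.51% of all 32851 windows. TGACATCA was in 1 of the 9 and in 3.62% of all windows. The classical AP-1 site TGANTCA was in 0 of the 9 and in 7.81% of all windows, and these letters may still lie outside the windows.

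None of the 9 genes passed the test between GPR15positive and GPR15negative cells, and none had an unadjusted p under 0.05 on its shown probe set. Differences of the shown probe sets ran from -0.44 for Jun to 0.41 for Batf on the log2(signal + 16) scale, on which 1 is a doubling of a bright signal, with 4 genes above 0 and 5 below. Their median was -0.09, beside a median of 0.07 over all 12253 genes tested. Over those genes limma called 4 at a Benjamini-Hochberg adjusted p under 0.05, which is 0.0326%, and 14.5% had an unadjusted p under 0.05. None differed by at least 2-fold with groups that did not overlap, as 4.71% of all genes did. The lowest adjusted p of any of the 9 genes was 0.474, for Jun. For 6 of them, Irf4, Junb, Jund, Fos, Fosb and Fosl2, the 95% interval of the difference lay within 2-fold in either direction, as it did for 56.8% of all genes, while for Batf, Batf3 and Jun it reached past 2-fold. Scaling arrays to equal medians moved the median of all genes by -0.27, and under it the differences of Irf4, Junb and Fosl2 turned negative, to -0.11, -0.23 and -0.21.

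**Figure D1:**
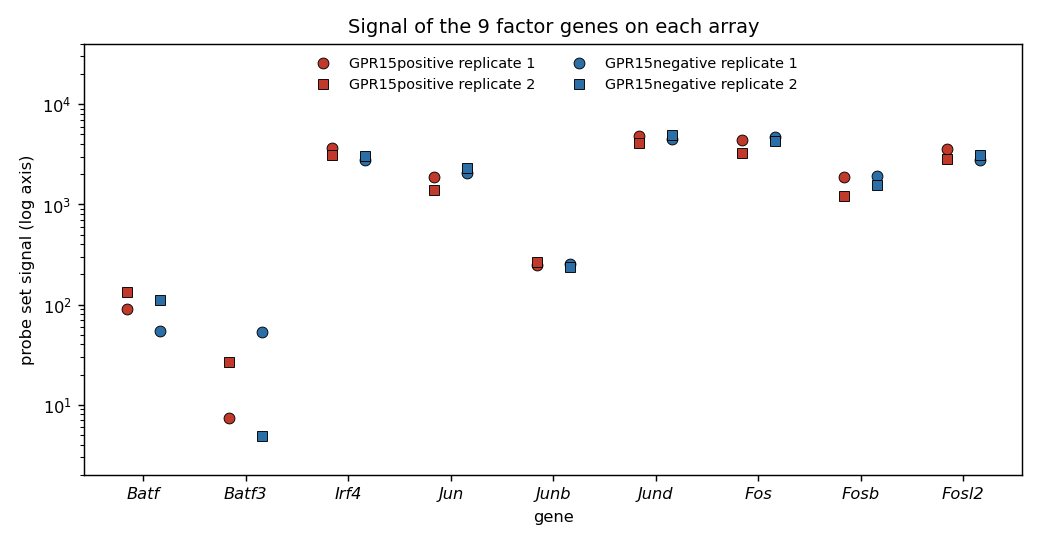
Signals of the shown probe set of each gene (log axis) on the 4 arrays, with GPR15positive in red on the left of each gene and GPR15negative in blue on the right, circles for replicate 1 and squares for replicate 2. The 2 colours overlap for all genes except Jun, where both red points lie below both blue ones, and Irf4, where both lie above. Distances between genes are not differences in expression, since each probe set has its own response.

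Irf4 was bright in both populations. Its shown probe set had signals of 3642 and 3146 on the GPR15positive arrays, against 2794 and 3058 on the GPR15negative arrays. Both GPR15positive arrays lay above both GPR15negative arrays, by a small margin in replicate 2. The difference was 0.21 (95% interval -0.32 to 0.75), with a limma adjusted p of 0.703. Taken by replicate number it was 0.38 for 1 and 0.04 for 2. Groups of 2 arrays did not overlap for 47.4% of all genes, so the 2 of 9 genes without overlap, Irf4 and Jun, are a smaller share than that background. Plasma cells also express Irf4 strongly, and their markers Jchain and Sdc1 were, like Irf4, highest on GPR15positive replicate 1 and lowest on GPR15negative replicate 1. Jchain had signals of 6219 and 4093 in GPR15positive samples and 3852 and 4455 in GPR15negative samples, and its part in the Irf4 signal was not tested. The other Irf4 probe set was dim, at 70.8 and 68.0 in GPR15positive and 114 and 32.6 in GPR15negative cells, with GPR15positive inside the range of GPR15negative.

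Batf, whose product is the zipper partner of the IRF4 complexes, was much dimmer on its single probe set. It had signals of 90.0 and 132 in GPR15positive samples and 54.9 and 110.1 in GPR15negative samples, and the groups overlapped. The difference was 0.41 (-0.46 to 1.27), with a limma adjusted p of 0.641. Taken by replicate number it was 0.58 for 1 and 0.23 for 2. Both replicate 2 arrays exceeded the replicate 1 array of their own group, by 0.48 in GPR15positive and 0.83 in GPR15negative cells, the second of these being larger than the group difference within either replicate number and the first smaller than that within replicate 1. Without GPR15negative replicate 1 the difference was -0.01. Batf3, best known for a class of dendritic cells and able to replace Batf in part, had signals of 7.39 and 26.9 against 53.0 and 4.93. Only 1 of these signals is above the filter at 27.3, the 2 groups overlapped, and the differences within replicates were -1.56 and 1.04, so its order in the 2 populations was not detectable with these arrays.

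Among the JUN genes, Jun itself was the one whose groups stood apart. Its shown probe set had signals of 1901 and 1385 in GPR15positive cells, against 2083 and 2335 in GPR15negative cells. Both GPR15positive arrays were lower, and GPR15positive replicate 2 was the lowest of the 4. The mean was 1643 ± 365 in GPR15positive and 2209 ± 179 in GPR15negative cells (SD, n = 2 each), a difference of -0.44 (-1.05 to 0.18), with -0.13 within replicate 1 and -0.75 within replicate 2. The other probe set of Jun gave 402 and 205 in GPR15positive cells, against 595 and 730.1 in GPR15negative cells. It kept the same order of the arrays, with a wider gap of -1.15 (-2.01 to -0.29), -0.55 within replicate 1 and -1.75 within replicate 2. In the fit over 27024 probe sets its unadjusted p was 0.0171 and its limma adjusted p 0.301, while 4.01% of those probe sets were lower at an unadjusted p under 0.05 and 9.02% higher. Without GPR15positive replicate 2 the differences were -0.21 for the shown and -0.69 for the other probe set, whose unadjusted p was then 0.0799, and 0.0796 without GPR15negative replicate 2.

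Junb and Jund encode JUN relatives that, in many cells, activate less strongly than JUN, and Junb is a known partner of BATF in Th17 cells. Junb had signals of 249 and 268 in GPR15positive samples and 256 and 235 in GPR15negative samples. The groups overlapped within a narrow range, and the difference was 0.07 (-0.45 to 0.58). Jund had signals of 4819 and 4061 in GPR15positive samples and 4499 and 4952 in GPR15negative samples, with overlap, and a difference of -0.09 (-0.64 to 0.45). Within replicate numbers the difference changed sign for both genes, with -0.04 and 0.18 for Junb and 0.10 and -0.29 for Jund. The other Jund probe set was dim, at 35.1 and 22.0 in GPR15positive cells and 16.1 and 37.5 in GPR15negative cells, and crossed between groups in the same way.

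Fos and Fosb, immediate-early genes that serum, antigen receptor signals and tissue digestion induce within minutes, were bright in both populations. Fos had signals of 4409 and 3286 in GPR15positive cells and 4672 and 4323 in GPR15negative cells. The first GPR15positive array lay between the GPR15negative arrays and the second lay below them, for a difference of -0.24 (-0.84 to 0.36). Fosb had signals of 1867 and 1216 in GPR15positive cells and 1909 and 1577 in GPR15negative cells, with the same arrangement and a difference of -0.20 (-0.90 to 0.50). Both genes differed little within replicate 1, by -0.08 and -0.03, and more within replicate 2, by -0.39 and -0.37. Without GPR15positive replicate 2 the Fosb difference was 0.11 and the Fos difference -0.0275.

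Fosl2 encodes FRA2, a FOS relative known in Th17 cells to bind many of the sites that BATF binds. Its shown probe set had signals of 3547 and 2859 in GPR15positive cells and 2805 and 3096 in GPR15negative cells, which overlapped, with a difference of 0.11 (-0.45 to 0.67) that changed sign between replicate 1, at 0.34, and replicate 2, at -0.11. Its other probe set had signals of 604 and 689 in GPR15positive cells, against 401 and 248 in GPR15negative cells. There both GPR15positive arrays were higher, at 647 ± 59.7 against 325 ± 108 (SD, n = 2 each). That difference was 0.99 (0.28 to 1.71), with 0.57 within replicate 1 and 1.42 within replicate 2, an unadjusted p of 0.0147 and a limma adjusted p of 0.289. The unadjusted p was 0.0600 without GPR15positive replicate 2, 0.0737 without GPR15negative replicate 2 and 0.0547 under median scaling. The gap between the 2 Fosl2 probe sets was not tested. With the mean of a gene's probe sets in place of the shown one, Fosl2 had a difference of 0.55 and Jun of -0.79.

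**Figure D2:**
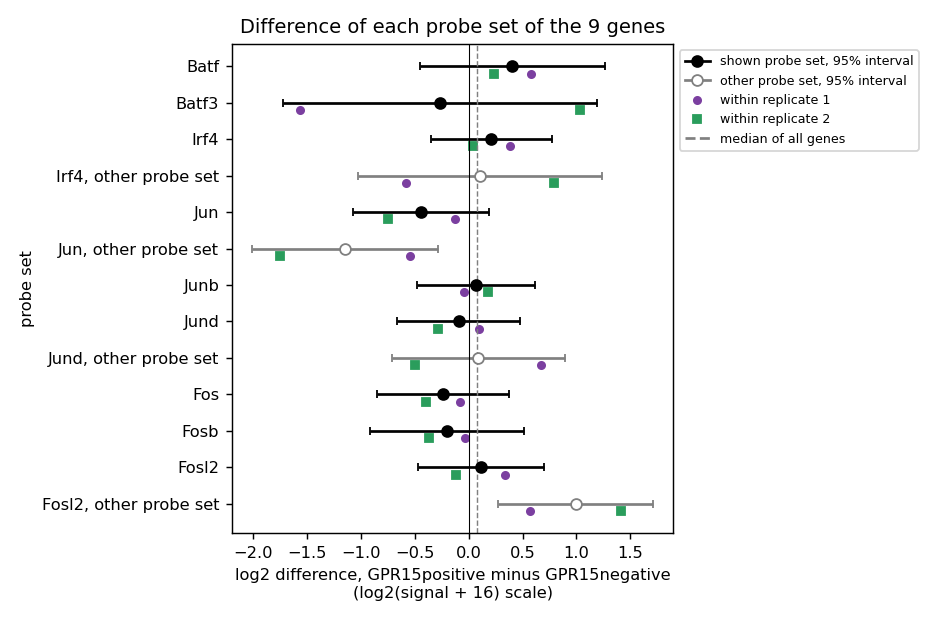
Log2 differences of all 13 probe sets, GPR15positive minus GPR15negative, with 95% intervals from the fit over 27024 probe sets, filled for the shown and open for the other probe sets. Purple circles and green squares are the differences within replicate 1 and replicate 2, and the dashed line is the median of all genes, 0.07. Only the intervals of the other probe sets of Jun and Fosl2 leave out 0.

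**Figure D3:**
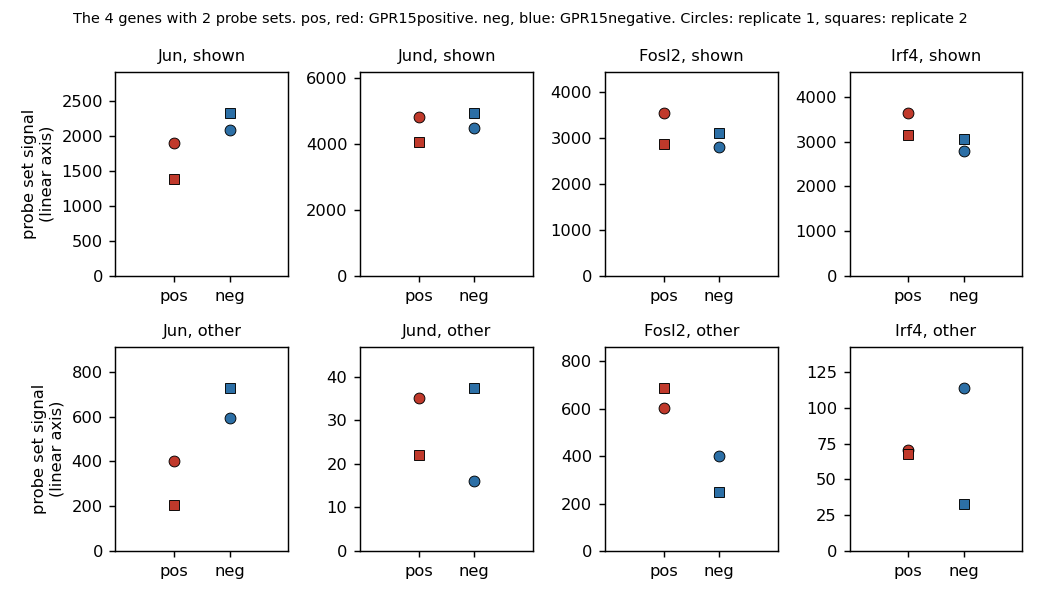
Signals (linear axes from 0) of the 4 genes with 2 probe sets, the shown probe set above and the other below, GPR15positive in red on the left and GPR15negative in blue on the right of each panel. The groups separate in both panels for Jun, in the lower panel alone for Fosl2, in the upper panel alone for Irf4, and in neither for Jund.

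Several of these genes shared a low value on 1 array. Jun, Jund, Fos and Fosb, 4 of the 9, were lowest on GPR15positive replicate 2, and 6 of the 9 genes had mean signals of at least 1000. Over all genes 21.3% were lowest on that array, and over the 1428 genes of mean signal 1000 or more 35.6% were. Among 29 other immediate-early genes and genes known to respond to tissue dissociation, such as Egr1, Zfp36 and Dusp1, 20 were lowest there. Quantile normalization left 4 of the 9 genes and 17 of the 29 lowest on it, beside 23.4% of all genes and 23.8% of the bright ones. GPR15positive replicate 2 was also the array with the highest summed myeloid markers.

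Among other leucine zipper genes related to AP-1, differences ran from -1.45 to 1.60. Of 23 listed, 19 were tested, 2 were dim (Fosl1 and Batf2) and 2 were not analysed here. The list's median difference was 0.22, with 13 members above 0 and 6 below. At an unadjusted p under 0.05, 2 were higher and 1 lower, beside 10.2% and 4.37% of all genes, and 0 passed the adjusted test. Under median scaling the list's median was -0.09.

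Jdp2, which encodes a JUN-binding zipper protein known as a repressor of AP-1 sites, had the largest positive difference of that list. Its signals were 817 and 1383 in GPR15positive cells, against 313 and 369 in GPR15negative cells. Both GPR15positive arrays were far above both GPR15negative arrays. The difference was 1.60 (0.84 to 2.36), with 1.34 and 1.86 within the replicate numbers, an unadjusted p of 0.0023 and a limma adjusted p of 0.168. It was highest on GPR15positive replicate 2, the array with the highest summed myeloid markers. Csf1r, a receptor of macrophages, had the largest difference of the 14 tested myeloid markers. Its signals were 35.5 and 164 in GPR15positive and 7.73 and 10.7 in GPR15negative samples. Itgax and Xcr1 of that list were instead higher on GPR15positive replicate 1 than on replicate 2. The part of myeloid cells in the Jdp2 signal was not tested. Without GPR15positive replicate 2 the Jdp2 difference was 1.23. The other probe set of Jdp2 was dim, between 5.84 and 7.86 on all arrays, and with the mean of both the difference was 0.76. The adjusted p of Jdp2 was 0.0103 with limma's trend and robust settings and 0.0225 with a pseudocount of 64. With these settings 3 and 2 of the 19 genes of the list passed, beside 1.96% and 1.43% of all genes, Bach2 among them both times.

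Bach2, a zipper repressor that competes with AP-1 for its sites in T cells and holds back effector differentiation, was the lower member of the list. It had signals of 252 and 238 in GPR15positive cells, against 816 and 597 in GPR15negative cells. The groups stood well apart, with a difference of -1.45 (-2.05 to -0.85), an unadjusted p of 0.0011 and a limma adjusted p of 0.1495. Its adjusted p was 0.00792 with trend and robust settings and 0.0167 with a pseudocount of 64. Its other 2 probe sets had differences of -0.98 and -1.21. Nfil3, a zipper repressor known from the circadian clock and from innate lymphoid cells, had signals of 483 and 576 against 207 and 293, a difference of 1.05 (0.41 to 1.69, limma adjusted p = 0.227). The brightest members were Maf, Crem and Atf4. Maf had a difference of 0.07, Crem of 0.25 and Atf4 of -0.22.

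The relatives of Irf4 had small differences, mostly below 0. Of 7 tested interferon regulatory factor genes, 0 had an unadjusted p under 0.05 in limma, beside 14.5% of all genes, and 0 passed the adjusted test. Differences ran from -0.31 to 0.16, with a median of -0.21 and 5 of the 7 below 0. For 4 of the 7 both GPR15positive arrays were below both GPR15negative arrays, as for 18.6% of all genes. The 3 brightest, Irf2, Irf1 and Irf5, had differences of -0.21, -0.27 and 0.16. All 7 had 95% intervals within 2-fold, as did 56.8% of all genes. Under median scaling, where 13.9% of all genes were lower and 4% higher at an unadjusted p under 0.05 and the median of all genes was -0.20, the list's median was -0.53 and 3 of the 7 were lower at that p.

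Kinases, NFAT proteins and other regulators that act before or beside AP-1 had differences on both sides of 0, with 8 above and 7 below. Of 15 tested members, 0 had an unadjusted p under 0.05 in limma, beside 14.5% of all genes, and 0 passed the adjusted test. The median was 0.00. Map3k1, a kinase that leads to JNK, had signals of 3982 and 3854 in GPR15positive cells and 3707 and 4042 in GPR15negative cells. Nfatc1, the calcium-driven partner of AP-1, had 1969 and 2416 in GPR15positive cells and 2238 and 2499 in GPR15negative cells, and its relative Nfatc3 had 2262 and 2128 against 1825 and 1651. The groups overlapped for Map3k1 and Nfatc1 and not for Nfatc3. Differences were 0.02, -0.12 and 0.34. Under median scaling 4 of the 15 were lower at an unadjusted p under 0.05, beside 13.9% of all genes.

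Genes known in T cells to need BATF or IRF4, or to be bound by them, went both ways. Of 24 listed, 18 were tested and 6 were not analysed here, and the list was drawn up with results of these samples known, so its direction is no independent evidence. At an unadjusted p under 0.05, 7 were higher and 2 lower, beside 10.2% and 4.37% of all genes, and 0 passed the adjusted test. The median was 0.33. Without 1 array there were 5 to 7 higher and 1 to 2 lower (1 lower without GPR15positive replicate 1 or GPR15negative replicate 2), and under median scaling the median was 0.01 with 5 higher, beside 4% of all genes. With a pseudocount of 64, where 1.43% of all genes passed the adjusted test, 5 of the 18 did, and with trend and robust settings, where 1.96% did, 4 of the 18 did.

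The 7 higher genes were Il10, Prdm1, Klrg1, Ebi3, Ccr8, Ahr and Ccr6. Il10, the suppressive cytokine, had 4131 and 3825 in GPR15positive cells, against 1379 and 1198 in GPR15negative cells, a difference of 1.62 (1.09 to 2.15, limma adjusted p = 0.119). Prdm1, which encodes BLIMP1, an inducer of Il10, had 730.4 and 533 against 245 and 204, a difference of 1.42 (0.79 to 2.04). In both genes the groups stood far apart. Klrg1, a marker of terminally differentiated T cells, differed by 2.58, Ebi3, a chain of interleukin-35, by 1.42 and the chemokine receptor gene Ccr8 by 1.20. Ahr, a receptor for dietary and microbial ligands, differed by 0.89 and Ccr6, a chemokine receptor gene known from Th17 cells, by 0.63. The other Ahr probe set had 108 and 86.0 in GPR15positive and 82.3 and 89.3 in GPR15negative cells, with overlap and a difference of 0.15. Il21, a cytokine that BATF and IRF4 drive in Th17 and follicular helper cells, was lower, with 66.8 and 10.7 in GPR15positive cells against 434 and 788 in GPR15negative cells, a difference of -3.68 (-5.11 to -2.25, limma adjusted p = 0.144). The other Il21 probe set had 4.25 and 5.60 against 32.6 and 87.5, a difference of -1.76. The other lower gene was Il17a, the signature cytokine of Th17 cells, at -0.75. The brightest members, Maf, Hif1a and Ctla4, had differences of 0.07, -0.03 and 0.31.

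Cytokine genes whose control regions are textbook examples of joined AP-1 and NFAT sites mostly had negative differences. Of 11 listed, 10 were tested and Il3 was dim, and 9 of the 10 differences were below 0. The median difference was -1.43, with -1.77 within replicate 1 and -0.93 within replicate 2. At an unadjusted p under 0.05, 9 were lower and 0 higher in limma, beside 4.37% and 10.2% of all genes, and 0 passed the adjusted test. Without 1 array 8 or 9 of the 10 were lower at that p. The adjusted test was passed by 5 of the 10 with a pseudocount of 64 and by 6 with trend and robust settings, beside 1.43% and 1.96% of all genes. This list too was drawn up with results of these samples known. Some of its genes, such as Fasl and Ifng, are also made by CD8 T and natural killer cells, and the part of those cells was not tested. Of their 4 tested markers Klrk1 and Eomes had differences of -0.87 and -1.13, Prf1 of 0.02 and Cd8a, the CD8 chain, of 0.44. Il2, the T cell growth factor, had 157 and 200.1 in GPR15positive cells, against 780.4 and 421 in GPR15negative cells, a difference of -1.61 (-2.45 to -0.77, limma adjusted p = 0.188). Csf2, which encodes the growth factor GM-CSF, had 89.0 and 158 against 633 and 377, a difference of -1.90. Every GPR15positive value of Il2 and Csf2 lay under every GPR15negative value. Il13, Il5, Fasl and Ifng had differences of -2.40, -1.93, -1.59 and -1.27. The bright member Tnfsf11, which encodes RANKL, differed by -0.94. Tnf had 83.0 and 72.4 against 78.3 and 74.7, with overlap.

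**Figure D4:**
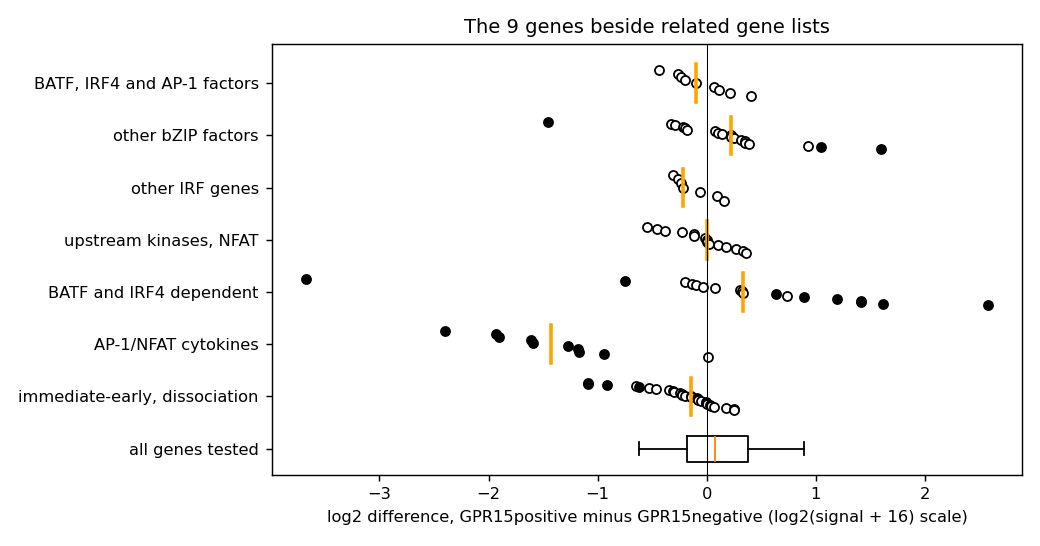
Log2 differences, GPR15positive minus GPR15negative, of the 9 genes and of 6 related lists, 1 circle a gene, filled at an unadjusted p under 0.05, with an orange bar at each list's median. The box for all 12253 genes tested spans the quartiles, with its median as a line and whiskers at the 5th and 95th percentiles. The 9 genes lie between -0.44 and 0.41 with no filled circle, while the cytokine list has 9 filled circles below 0.

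Immediate-early and dissociation genes other than AP-1 had a median difference of -0.14 over 29 members. At an unadjusted p under 0.05, 4 were lower and 0 higher in limma, beside 4.37% and 10.2% of all genes, and 0 passed the adjusted test. The 4 were Egr2 and Egr3, zinc finger factors that NFAT induces, at -1.09 each, the growth regulator Myc at -0.92 and the antiproliferative gene Btg2 at -0.62. With the mean of probe sets Egr3 had a difference of -0.37 and an unadjusted p of 0.0914 in limma. Its other probe set was dim, at 6.07 and 8.99 in GPR15positive and 2.45 and 2.47 in GPR15negative cells. Egr2 had 421 and 364 in GPR15positive cells, against 760.2 and 955 in GPR15negative cells. The brightest members, Hspa1b, Nfkbia and Hsph1, had differences of -0.09, -0.01 and -0.08. Under median scaling 8 of the 29 were lower at an unadjusted p under 0.05, beside 13.9% of all genes, and without GPR15positive replicate 2 there were 3, beside 4.13%. With a pseudocount of 64, and with trend and robust settings, 2 of the 29 passed the adjusted test, Egr2 and Egr3, beside 1.43% and 1.96% of all genes.

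The genes whose profile over the 4 arrays lay nearest to a member were found by the Euclidean distance between log2 values, each centred on the gene's own mean. Nearest to Batf were Slc2a10 at 0.05, Tdo2 at 0.05 and Abhd1 at 0.07. Nearest to Irf4 were Kcnmb2, Tenm3 and Fbxo22, at 0.02, 0.02 and 0.03, and nearest to Fos were Ccdc58, Gimap3 and Wbp4, at 0.03, 0.03 and 0.04. Within a distance of 0.1 there were 5 genes for Batf, 88 for Irf4 and 40 for Fos, and 4 arrays give little power to tell such profiles apart.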

How the data were processed

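CD4 T cells sorted by GFP were profiled on 4 Affymetrix arrays, per the labels' protocols. The authors deposited linear probe set intensity values, with 1 value per probe set and array. The summary software is not given in the sources used here. With 2% of values dropped from either tail, every array averaged 150.0, while medians differed. Probe sets were named through the platform annotation (34945 with 1 symbol, 932 with several, 9160 without one and 64 controls), and RefSeq identifiers matched 34741. Each gene took its probe set of highest mean. Values were taken to log2 after adding 16, which understates differences of dim genes. The 12252 genes above the 40th percentile of probe sets, plus Batf3, were tested two-sided with limma 3.58.1 in R 4.3.3 (lmFit, eBayes without trend, group as the only term, 95% intervals), adjusted by Benjamini-Hochberg over all 12253. The same fit over 27024 probe sets, added after seeing the data, gave values of other probe sets. The fit was tested on simulated data. With 2 arrays a group, their number limits the precision. Members and lists were chosen with earlier results of these data known. From each list the text names up to 6 genes by size, at an unadjusted p under 0.05 with groups apart, and up to 3 by brightness. Tnf, Il17a, Ahr, Ccr6, Zfp36, Egr1, Dusp1, the dim genes, Xist, Eif2s3y and the cell markers (Cd4, Cd3e, Lat, Csf1r, Itgax, Xcr1, Jchain, Sdc1, Klrk1, Eomes, Prf1, Cd8a) were named after their values were seen. Alternatives covered normalization, pseudocount, filter, probe sets, the model and leaving out each array.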

Additional observations from a re-analysis of the deposited data

How the results depend on the processing

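None of the 9 genes was called in any of 14 alternatives on the shown probe set or the mean of probe sets, where the lowest adjusted p was 0.232. The adjusted p of the other probe sets ran from 0.0985 to 0.509 for Jun and from 0.0855 to 0.514 for Fosl2, lowest with trend and robust settings. The number of all genes called, 4, was 0 under quantile, cyclic loess and median scaling, a pseudocount of 1, no filter and the replicate block, 8 with the mean of probe sets, 50 with a filter at the 60th percentile, 175 with a pseudocount of 64 and 240 with trend and robust settings, and 0 without any 1 array. Where it was 0, limma gave 1463 to 2189 genes at an unadjusted p under 0.05 in those 6 settings and 1210 to 1451 without 1 array, beside 1781. At an unadjusted p under 0.05 there was 1 of the 9 genes, Jun, under median scaling and under trend and robust settings, and 2, Jun and Fosl2, with the mean of probe sets. The count of the 9 genes with at least 2-fold and no overlap was 0, and 0 to 1 without 1 array. The 1 was Batf3, which is below the filter for dim genes, at -1.12 without GPR15negative replicate 2. Differences turned sign under median scaling for Irf4 (-0.11), Junb (-0.23) and Fosl2 (-0.21). They also did for the dim probe sets of Irf4 and Jund under quantile (-0.0597 and -0.12), cyclic loess (-0.0673 and -0.13) and median scaling (-0.15 and -0.11). Without 1 array the range was -0.0088 to 0.82 for Batf, -1.12 to 0.60 for Batf3, -0.22 to 0.0297 for Jund, -0.51 to 0.11 for Fosb, -0.0437 to 0.27 for Fosl2, -0.61 to 0.81 for the dim Irf4 and -0.28 to 0.46 for the dim Jund probe set. The cause was not tested. Fos ran from -0.45 to -0.0275 without 1 array. Jun kept its sign throughout, and so did the other probe sets of Jun (-1.61 to -0.69 without 1 array) and Fosl2 (0.66 to 1.32). Deviations of same-numbered arrays correlated at 0.198, but the labels do not pair them. The replicate block, which also takes up the difference between females and males, left the group differences as they were and called 0 of the 9 genes.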

Other observations

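Fos, Jdp2 and Batf, which all encode leucine zipper proteins, follow one another on mouse chromosome 12 in the protein-coding order of the RefSeq table for GRCm38.p6, and their values differed. Jdp2 had a log2 difference of 1.60 between GPR15positive and GPR15negative cells, against -0.24 for Fos on one side and 0.41 for Batf on the other. The genes beyond them had differences of 0.26 for Tmed10 and -0.06 for Nek9 next to Fos, and of -0.03 for Flvcr2 and -0.14 for Erg28 next to Batf. None of the 7 passed the adjusted limma test. The genes were chosen after their neighbourhood was seen, and differences between neighbours were not tested.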
